A study of Mus musculus with 12 samples.

Results

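Hyaluronan is a long, unsulfated polysaccharide of the extracellular matrix, and 6 genes that make it, break it down or receive it were followed here in mouse embryonic fibroblasts (MEFs): the synthases Has1, Has2 and Has3, the hyaluronidases Hyal1 and Hyal2, and the receptor Cd44. They were chosen by name out of 25117 gene symbols in the table, and all 6 were found. The choice was made with earlier results of these data in view, among them the Has2 level in KO and wildtype cells in full medium. Members are therefore described without a test in that comparison, and Has2 is described without a test in every comparison that uses those libraries.

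All cells carried Rbbp5 (flox/flox) together with Rosa26 CRE (+/+), so the controls hold the same alleles as the cells labelled KO. RBBP5 is a core subunit of the complexes that methylate lysine 4 of histone H3. Cells labelled RBBP5 KO had tamoxifen for 7 days, and cells labelled wildtype had none. Each kind was then kept in full DMEM medium with serum or for 16 hours in EBSS, a salt solution with glucose but without amino acids or serum, which gave 4 groups of 3 libraries. Only the cells labelled KO met tamoxifen, so its effect, that of active Cre and that of RBBP5 loss cannot be told apart. The Rosa26 locus is active in nearly all cell types, and the labels do not say from how many embryos or cultures the cells came. If the replicates shared a culture, p-values measure only the spread between these libraries.

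Hyaluronan is made at the plasma membrane. HAS enzymes join UDP-glucuronate and UDP-N-acetylglucosamine and push the growing chain out of the cell, and HAS2 is the main enzyme of mesenchymal cells and of the embryo. HYAL2 sits at the cell surface and cuts long chains into fragments, which HYAL1 degrades further in lysosomes. CD44, a transmembrane glycoprotein with a hyaluronan-binding link domain, ties the cell to this coat and takes part in its uptake.

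The labels were first checked with Rbbp5, the targeted gene. It was at 25.7 to 26.2 TPM in wildtype cells and 7.47 to 9.34 TPM in KO cells in full medium, but at 23.0 to 31.9 TPM in the libraries labelled KO, EBSS and 11.8 to 14.0 TPM in those labelled wildtype, EBSS. TPM is a relative abundance corrected for transcript length. The EBSS groups are therefore called by their labels below, and which of them is higher is stated only in terms of labels that go against the Rbbp5 level. Each comparison between media rests on these labels too. If they were exchanged, it would set apart cells that differ in tamoxifen as well as in medium. The 3 libraries labelled wildtype, EBSS also stood apart: the summed share of 85 ribosomal protein genes was 31.6% to 34.1% there and 14.6% to 18.3% in the remaining 9 libraries. Median-of-ratios scaling, which sets the typical gene equal across libraries, divided them by 0.596 to 0.642 and the others by 1.03 to 1.27. In replicate 3 of that group 1122 of 12653 tested genes had a value of 0, compared with 12 to 229 elsewhere. Replicate 1 of labelled KO, EBSS differed from its 2 companions in several genes below. Results are given with and without both libraries where that matters.

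Fibroblast markers were found in all groups, but only 7 of the 10 listed reached 1 TPM in KO, full medium and 8 in labelled wildtype, EBSS. Their sums were 6751 to 6765 TPM in wildtype cells and 4442 to 5133 TPM in KO cells in full medium. In EBSS they were 3241 to 3634 TPM with the label wildtype and 5227 to 6789 TPM with the label KO. Vim was the largest part, averaging 2840 and 3090 TPM in wildtype and KO, full medium. Pdgfra averaged 10.6 and 0.238 TPM there, Lum 5.29 and 0.312 TPM and Dcn 157 and 23.3 TPM. At a limma adjusted p under 0.05, 0 of the 10 were higher and 8 lower in KO, full medium, beside 20.1% and 35.8% of all genes. Thy1, a fibroblast surface marker, was at 1.32 TPM or less in every library. The 7 macrophage markers, of a cell type that also carries Cd44, summed to 61.2 to 65.9 TPM in KO, full medium, mostly Cd68 at 56.4 to 62 TPM. They summed to 83.2 TPM in replicate 3 of labelled wildtype, EBSS, with Lyz2 at 48.4 TPM, and to 17 to 22.3 TPM in the other 8 libraries. Ptprc, the pan-leukocyte gene, was at 0.734 TPM or less in all 12. The sums of 6 epithelial, 5 endothelial, 4 mesothelial and 5 muscle markers lay at 100 to 284, 6.3 to 25.9, 160 to 461 and 1.77 to 66 TPM. The mesothelial and endothelial sums were highest in wildtype, full medium, like Has2 and Cd44, but were mostly Msln and Egfl7. The endothelial markers Kdr and Cdh5 went with Egfl7, averaging 2.96 and 0.334 TPM there and 0.45 and 0.0414 TPM in KO, full medium. Tek and Pecam1 went the other way, at 0.104 and 0.0523 TPM in wildtype and 0.378 and 0.126 TPM in KO. So did the mesothelial Upk3b and Lrrn4, at 0.228 and 0.0328 TPM in wildtype and 2.11 and 0.0572 TPM in KO. Epithelial sums were 159 to 174 TPM in wildtype and 248 to 284 TPM in KO in full medium, and muscle sums 1.77 to 2.17 and 52.9 to 66 TPM, with Acta1 at 0.752 and 51.7 TPM on average. The part of these markers in the results was not tested. In bulk RNA, fewer cells that express a gene and less RNA per cell cannot be told apart.

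Among the synthases, Has2 (ENSMUSG00000022367.7, chromosome 15 from 56665627 to 56694539 on GRCm38, minus strand, 4 exons) was the most abundant of the 3 in every library. It was at 65.0, 66.3 and 68.2 TPM in wildtype cells in full medium, higher than 78.1% of tested genes there, and at 0.197, 0.352 and 0.368 TPM in KO cells in full medium. The libraries labelled wildtype, EBSS held 0.609, 0.481 and 1.37 TPM. In labelled KO, EBSS it was at 4.67 TPM in replicate 1 and at 64.1 and 63.6 TPM in replicates 2 and 3. Has2 thus was either high or low in 11 libraries, and replicate 1 of labelled KO, EBSS lay between them. KO, full medium was lowest and labelled wildtype, EBSS next, with no overlap. The 2 upper libraries of labelled KO, EBSS reached to just under the lowest wildtype library in full medium, and after median-of-ratios scaling these 2 lay among the wildtype values, at 53.9 and 54.0 against 52.4 to 54.5.

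**Figure D1:**
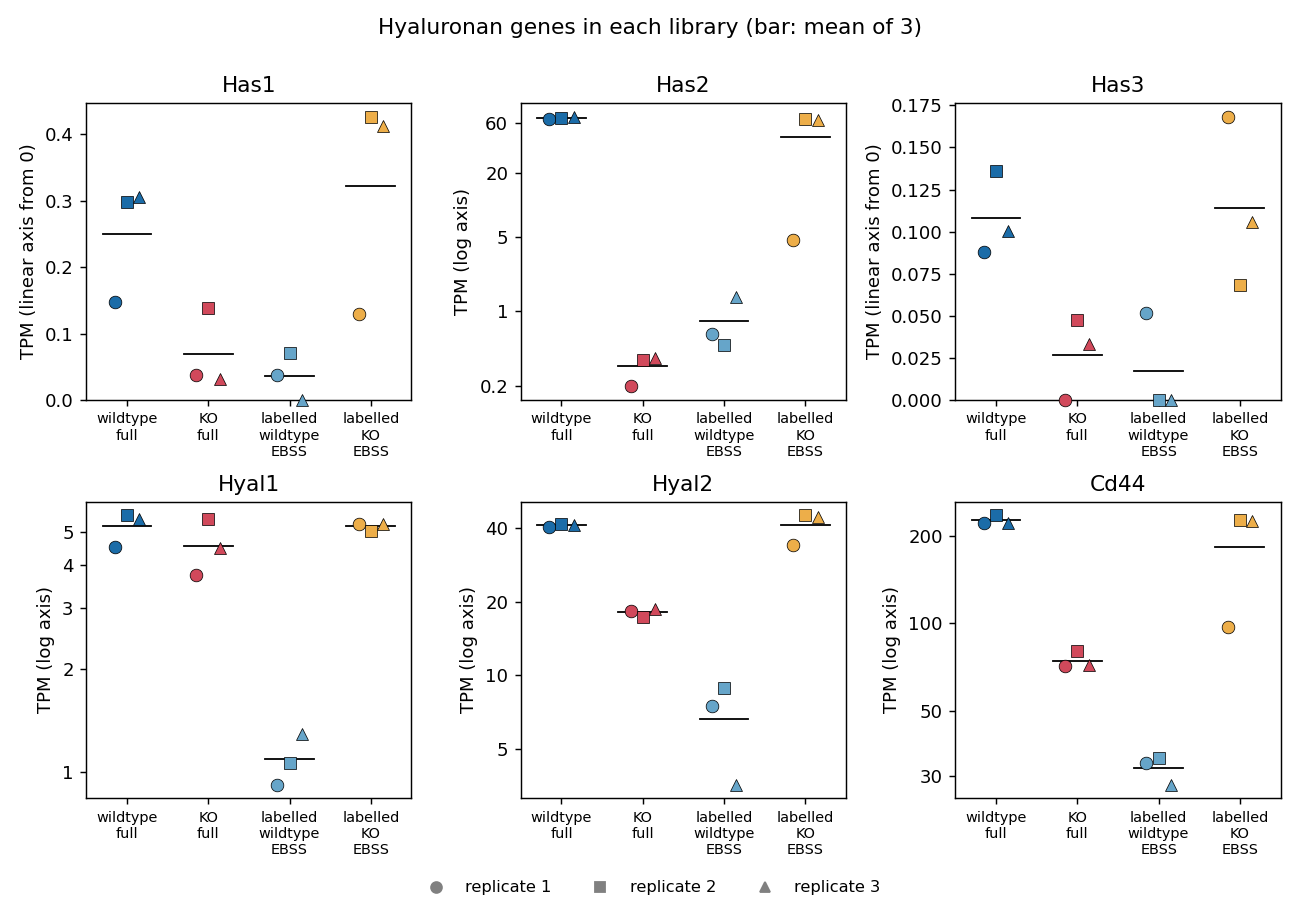
TPM of the 6 hyaluronan genes in each library, by group; the shape of a point gives the replicate, the bar is the mean of 3, and axes are logarithmic for Has2, Hyal1, Hyal2 and Cd44 and linear from 0 for Has1 and Has3. Has2 is at 0.197 to 1.37 TPM in KO, full medium and labelled wildtype, EBSS, and replicate 1 of labelled KO, EBSS, at 4.67 TPM, stands apart from the other 2 of its group at 63.6 and 64.1 TPM.

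The contrast of the EBSS groups uses none of the full medium libraries whose Has2 level was known when the genes were chosen. Other earlier results of these data were also in view, so its p-values may not be free of that choice. The mean Has2 level was 44.1 ± 34.2 TPM over the 3 libraries labelled KO, and over the 3 labelled wildtype it was 0.819 ± 0.479 TPM (± SD). Has2 was higher in all 3 libraries labelled KO, by 4.02 on the log2(TPM + 1) scale (SE 0.72, limma adjusted p = 0.00031). Of the tested genes 71.9% passed as higher and 8.58% as lower in this contrast, with a median change of 0.91 over all genes, and Has2 was 3.11 above that median. Without replicate 1 of labelled KO, EBSS the Has2 change was 5.19, and without both libraries that stood apart it was 5.39. Adding 1 TPM before taking logs shrinks the change of a gene under 1 TPM, and with 0.1 added the change was 4.99.

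In full medium, as a description, Has2 averaged 66.5 ± 1.60 TPM in wildtype cells and 0.306 ± 0.0942 TPM in KO cells, a ratio of means of 218 in favour of wildtype. On the log2(TPM + 1) scale that is -5.69 (SE 0.72), and -7.39 with 0.1 added. EBSS against full medium was at -5.24 in labelled wildtype and at 4.47 in labelled KO, and the latter was 5.64 without replicate 1 of labelled KO, EBSS. All 6 libraries of the low groups held 1.37 TPM of Has2 or less. Read depth is unknown in a TPM table, so the size of a change at that level is uncertain.

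Has2os (ENSMUSG00000086541.8, chromosome 15 from 56689944 to 56778399, plus strand), a noncoding RNA transcribed against Has2, shares 4596 bases of genome with it. In full medium its levels were 2.12, 1.23 and 1.76 TPM in wildtype cells, and 0.627, 0.257 and 0.712 TPM in KO cells. In EBSS they were 0.21, 0.202 and 0 TPM for the label wildtype, and 0.442, 1.41 and 1.17 TPM for the label KO. Has2os was higher than Has2 in 2 of the 3 KO libraries in full medium and lower in the other 10. In EBSS it was higher in labelled KO by 0.79 (SE 0.21, limma adjusted p = 0.0048), which is 0.12 less than the median gene. The ratio of mean TPM was 7.31, and at 1.41 TPM or less the added 1 TPM shrinks the change. How strand was treated in quantification is not given in the sources used here, so reads of the overlap cannot be assigned to one strand.

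Has1 (ENSMUSG00000003665.7, chromosome 17 from 17843323 to 17855205) and Has3 (ENSMUSG00000031910.14, chromosome 8 from 106870242 to 106884566), the other two synthases, stayed under 0.43 and 0.17 TPM in all 12 libraries. Neither reached the filter of 1 TPM in 3 libraries, so they were not among the tested genes, and the counts of tested members below cover 4 of the 6. Has1 was at 0.148, 0.298 and 0.306 TPM in wildtype cells and 0.0376, 0.138 and 0.0322 TPM in KO cells in full medium. Its levels were 0.0376, 0.0699 and 0 TPM in labelled wildtype, EBSS and 0.13, 0.426 and 0.412 TPM in labelled KO, EBSS. The 2 upper libraries of labelled KO, EBSS were above all wildtype libraries, and replicate 1 of that group was again the lowest of its 3. Has3 was at 0.0879 to 0.136 TPM in wildtype, full medium, 0 to 0.0473 TPM in KO, full medium, 0 to 0.0514 TPM in labelled wildtype, EBSS and 0.0685 to 0.168 TPM in labelled KO, EBSS. For Has3 replicate 1 of labelled KO, EBSS was the highest of the 12 libraries. With no filter on low values, both were higher in labelled KO than in labelled wildtype in EBSS, by 0.35 for Has1 (limma adjusted p = 0.0074) and 0.13 for Has3 (adjusted p = 0.0096), at levels where a few reads decide the value.

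Hyal2 (ENSMUSG00000010047.12, chromosome 9 from 107567945 to 107572779) and Hyal1 (ENSMUSG00000010051.15, chromosome 9 from 107576927 to 107581710) lie on the same strand, 4147 bases apart, and Hyal1 overlaps the start of Hyal3 by 893 bases. Hyal3 was at 0.651 TPM or less in every library. In full medium the neighbours differed. Hyal2, the surface enzyme, was at 40.4, 41.6 and 41.2 TPM in wildtype cells and at 18.3, 17.3 and 18.6 TPM in KO cells in full medium. Hyal1, the lysosomal enzyme, was at 4.53, 5.61 and 5.46 TPM in wildtype cells and at 3.75, 5.46 and 4.48 TPM in KO, so its groups overlapped while those of Hyal2 did not. As a description, the change in full medium was -1.14 (SE 0.23) for Hyal2 and -0.16 (SE 0.14) for Hyal1. The ratio of Hyal2 to Hyal1 TPM within a library was 7.41 to 8.91 in wildtype and 3.17 to 4.89 in KO, and in EBSS it was 2.77 to 8.37 with the label wildtype and 6.44 to 8.98 with the label KO.

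In labelled wildtype, EBSS both enzymes were low, Hyal2 at 7.51, 8.85 and 3.56 TPM and Hyal1 at 0.915, 1.06 and 1.29 TPM. In labelled KO, EBSS Hyal2 was at 34.1, 45.3 and 44.4 TPM and Hyal1 at 5.29, 5.04 and 5.27 TPM. Replicate 1 of labelled KO, EBSS was the lowest of its group for Hyal2 and the highest for Hyal1. Hyal2 was higher in labelled KO than in labelled wildtype by 2.53 (SE 0.23, limma adjusted p = 1.6e-06), and Hyal1 by 1.57 (SE 0.14, adjusted p = 1.5e-06), higher in 3 of 3 libraries for both. The ratios of mean TPM were 6.21 for Hyal2 and 4.79 for Hyal1. At 0.915 to 1.29 TPM in labelled wildtype, EBSS, adding 1 TPM shrinks the change of Hyal1 more than that of Hyal2. Relative to the median gene the log2(TPM + 1) changes of Hyal2 and Hyal1 were 1.62 and 0.67. Scaling moved both by over 1.5 times: with median-of-ratios scaling they were 1.66 (adjusted p = 0.00026) and 0.95 (adjusted p = 9.8e-05), and with quantile normalization 1.53 (adjusted p = 0.00018) and 0.57 (adjusted p = 0.013).

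Between media, Hyal2 fell by 2.54 (SE 0.23, limma adjusted p = 1.4e-06) and Hyal1 fell by 1.57 (SE 0.14, adjusted p = 1.4e-06) from full medium to EBSS in labelled wildtype, where 9.25% of all tested genes passed as higher and 71.8% as lower, and the median gene was at -0.94. With median-of-ratios scaling these changes were -1.62 and -0.92, and with quantile normalization -1.5 and -0.53 (adjusted p = 0.00019 and 0.019). The ratios of mean TPM, full medium over EBSS, were 6.19 for Hyal2 and 4.79 for Hyal1. In labelled KO, Hyal2 rose by 1.14 (SE 0.23, adjusted p = 0.0017), beside 33.3% of genes higher and 20.9% lower and a median of 0.13. Hyal1 was at 0.17 there (SE 0.14, adjusted p = 0.35) and did not pass. These comparisons share the full medium libraries with the comparison of genotypes. With exchanged EBSS labels they would mix the medium with tamoxifen, so a rise or fall here is not read as an effect of the medium alone. In order of level, Hyal2 was lowest in labelled wildtype, EBSS, then KO, full medium, with no overlap, and its 2 upper groups overlapped. Hyal1 was low in labelled wildtype, EBSS only, and its other 3 groups overlapped.

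Cd44 (ENSMUSG00000005087.17, chromosome 2 from 102811141 to 102901665, minus strand) was the most abundant member, higher than 94.5% of tested genes in wildtype, full medium. Full medium libraries held 222, 236 and 222 TPM of Cd44 in wildtype and 71.1, 80.3 and 71.9 TPM in KO. The libraries labelled wildtype, EBSS held 33.1, 34.4 and 27.9 TPM. In labelled KO, EBSS it was at 97.3 TPM in replicate 1 and 226 and 224 TPM in replicates 2 and 3. The lowest group was labelled wildtype, EBSS and the next KO, full medium, without overlap, also after median-of-ratios scaling (43.4 to 55.6 against 64.1 to 71.3). The libraries of labelled KO, EBSS other than replicate 1 lay within the wildtype range in full medium. Gene-level TPM sums over the splice forms of Cd44, for which 8 coding transcripts with 9 to 19 exons are annotated, so a shift between them would not be seen.

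**Figure D2:**
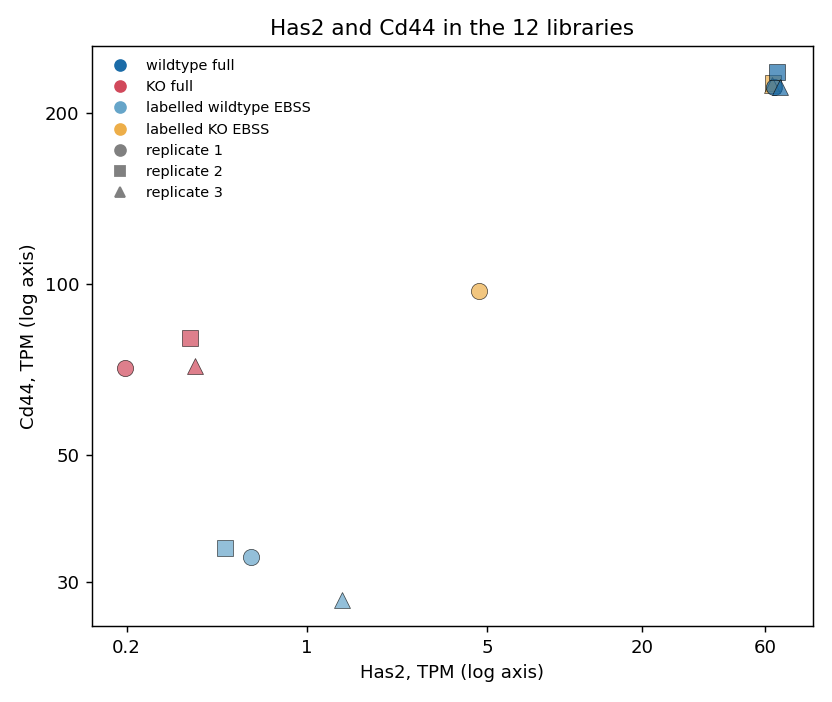
Has2 against Cd44 in the 12 libraries, both in TPM on log axes, coloured by group and shaped by replicate. Wildtype, full medium and replicates 2 and 3 of labelled KO, EBSS lie together at the top right, replicate 1 of labelled KO, EBSS lies between (4.67 and 97.3 TPM), and the order of the 2 low groups differs between the genes: KO, full medium is lower for Has2 and higher for Cd44.

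The mean Cd44 level in EBSS was 182 ± 73.7 TPM with the label KO and 31.8 ± 3.47 TPM with the label wildtype (± SD, 3 libraries each). Cd44 was higher in 3 of 3 libraries by 2.39 (SE 0.26, limma adjusted p = 5.3e-06), which is 1.48 above the median gene. With median-of-ratios scaling the change was 1.45 (adjusted p = 0.00099). From full medium to EBSS Cd44 fell by 2.80 in labelled wildtype (SE 0.26, adjusted p = 1.4e-06), or 1.86 more than the median gene, and rose by 1.18 in labelled KO (SE 0.26, adjusted p = 0.0023). Without replicate 1 of labelled KO, EBSS that rise was 1.58. In full medium the described change was -1.59 (SE 0.26).

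In EBSS, where 4 members were tested, 4 were higher and 0 lower in labelled KO than in labelled wildtype, beside 71.9% of all genes higher and 8.58% lower. Between media only Hyal1, Hyal2 and Cd44 were tested: 0 rose and 3 fell in labelled wildtype, beside 9.25% and 71.8% of all genes, and 2 rose and 0 fell in labelled KO, beside 33.3% and 20.9%. In full medium, as a description from which nothing is read, 0 of 4 members were past the same threshold as higher and 3 as lower in KO, beside 20.1% and 35.8% of all genes. Libraries that did not overlap, in the direction of the members, were seen in 70% of all genes in EBSS, 49.7% in full medium, 73.6% between media in labelled wildtype and 41.5% between media in labelled KO.

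Scaling changed the balance of all genes. With median-of-ratios scaling 34.8% of all genes were higher and 29% lower in EBSS, 26.8% and 27% in full medium, 30.3% and 35.7% between media in labelled wildtype, and 26% and 26.2% between media in labelled KO. The number of tested members called was 4 in EBSS, 3 between media in labelled wildtype and 2 in labelled KO, as without that scaling. These numbers also held without both libraries that stood apart. The difference of labelled KO minus labelled wildtype was shifted upward from full medium to EBSS in Hyal1, Hyal2 and Cd44, the 3 members tested for it, beside 64.2% of all genes shifted upward and 12.5% downward, or 34.1% and 32.8% with that scaling. The count was 2 with quantile normalization, where Hyal1 did not pass. This shift rests on the EBSS labels, since exchanging them would turn the sign of the EBSS difference. It also contains the full medium difference, in which members are described without a test, so these calls are not free of the choice of genes.

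**Figure D3:**
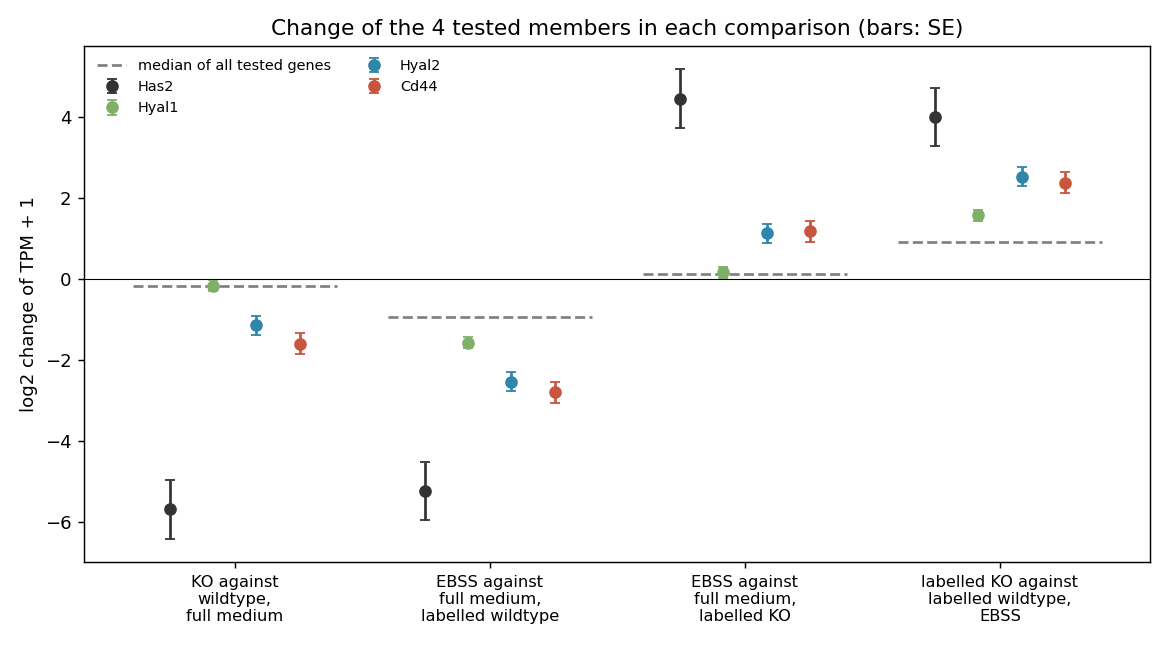
Change of Has2, Hyal1, Hyal2 and Cd44 on the log2(TPM + 1) scale in 4 comparisons, with the SE of the fit as bars and the median of all tested genes as dashed lines. Has2 is farthest from the dashed line in each comparison, and Hyal1 lies on it in 2 of them, the genotypes in full medium and the media in labelled KO.

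Promoter windows were compared for the members matched in the RefSeq table (build GRCm38.p6), which were 4 of 6: Has1, Hyal1, Hyal2 and Cd44, with Has2 and Has3 unmatched. RBBP5 belongs to complexes that are drawn to promoters rich in unmethylated CpG dinucleotides. CpG content was therefore counted in the 250 bases upstream of each RefSeq start. Cd44 and Hyal1 are printed, the former a gene whose KO and wildtype libraries in full medium did not overlap and the latter one whose libraries did. The Cd44 window is chr2:102901666-102901915 on the minus strand and lies in no annotated exon. The Hyal1 window is chr9:107576700-107576949 on the plus strand, and its last 23 bases are in an annotated Hyal1 exon. Both are 5′ to 3′, and capitals mark each CpG.
Cd44: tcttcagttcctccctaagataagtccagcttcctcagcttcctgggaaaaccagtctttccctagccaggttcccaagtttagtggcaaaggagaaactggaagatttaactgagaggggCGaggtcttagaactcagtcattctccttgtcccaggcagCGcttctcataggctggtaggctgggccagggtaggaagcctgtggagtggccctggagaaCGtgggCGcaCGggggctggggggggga
Hyal1: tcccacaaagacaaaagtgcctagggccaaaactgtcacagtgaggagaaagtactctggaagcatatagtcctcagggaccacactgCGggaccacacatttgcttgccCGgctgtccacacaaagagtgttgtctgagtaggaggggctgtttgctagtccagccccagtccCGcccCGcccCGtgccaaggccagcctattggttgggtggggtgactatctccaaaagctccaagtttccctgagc

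Both windows held 5 CpG, near the median of 6 over 32841 RefSeq promoters of that length. The Has1 window held 4, and the Hyal2 window 13, more than 68.5% of promoters. The Hyal2 window, chr9:107568913-107569162, lies inside the annotated gene, and 180 of its 250 bases are in annotated Hyal2 exons. Searched on both strands, the GC box GGGCGG was found 2 times for Hyal1, overlapping, 1 time for Hyal2 and 0 times for Cd44 and Has1, beside 32.7% of all promoters with at least 1. CCAAT was found 1 time each for Hyal1 and Has1, beside 33.9% of promoters. The AP-1 site TGANTCA (in 6.75% of promoters) and TATAAA (in 12.4%) were found in none of the 4.

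The wider pathway was taken from a list by function. It had 51 other genes in the table, and 32 were tested. In EBSS 28 were higher in labelled KO and 1 lower, which is 87.5% higher beside 71.9% of all genes, with a median change of 1.53 against 0.91. With median-of-ratios scaling 23 were higher and 4 lower, beside 34.8% and 29% of all genes, and with quantile normalization 20 and 6. In full medium 4 were higher and 18 lower in KO, 56.2% lower beside 35.8%, with a median of -0.72 against -0.17. From full medium to EBSS 2 rose and 29 fell in labelled wildtype, 90.6% lower beside 71.8% of all genes. With either scaling 5 rose and 22 fell there, beside 30.3% and 35.7% of all genes with median-of-ratios scaling. In labelled KO 18 rose and 4 fell, 56.2% higher beside 33.3% of all genes (16 and 7 with quantile normalization). For quantile normalization no shares over all genes are given, so those counts are not read as particular to the pathway. The pathway medians lay farther from 0 than those of all genes.

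For the functional lists below, the shares over all genes are those given above, 71.9% higher and 8.58% lower in EBSS and 20.1% higher and 35.8% lower in full medium. Of the 8 genes that supply the sugar nucleotides, 7 were higher and 0 lower in labelled KO in EBSS (87.5% higher). Gnpnat1, which acetylates glucosamine phosphate, was higher by 3.01 (limma adjusted p = 2.6e-05), Gfpt2 and Gfpt1, the entry enzymes of the hexosamine pathway, by 2.74 and 2.19, and Pgm3, the next mutase, by 2.17. In full medium 1 rose and 3 fell in KO (12.5% and 37.5%), near the shares of all genes. The paralogs differed there: Gfpt2 averaged 6.98 ± 0.461 TPM in wildtype cells and 0.301 ± 0.0683 TPM in KO cells (-2.62, limma adjusted p = 7.2e-08), while Gfpt1 was at 30 ± 0.466 and 27.9 ± 4.87 TPM and did not pass (adjusted p = 0.61). Ugdh, which makes UDP-glucuronate and was named after its values were seen, fell by 1.40 (adjusted p = 0.00022), from 332 ± 10.6 to 126 ± 8.06 TPM. The gene of this list that rose was Ugp2, also named after its values were seen. It went from 62.2 ± 3.01 to 131 ± 17.3 TPM (1.05, adjusted p = 0.0014), and in EBSS it did not pass (-0.16, adjusted p = 0.50). In replicate 1 of labelled KO, EBSS, where Has2 was low, Ugdh was at 143 TPM against 273 and 279 TPM in the others, and Gfpt1 at 41.7 against 28.9 and 27.6 TPM.

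Of 5 other breakdown genes tested, 3 were higher and 0 lower in labelled KO in EBSS, and 60% higher is below the 71.9% of all genes. They were Gusb, the lysosomal glucuronidase (1.78), Cemip2, a cell-surface protein of hyaluronan breakdown (1.55), and Cemip, a secreted one (1.09), the last only 0.18 above the median gene. In full medium 1 rose and 2 fell in KO: Cemip averaged 4.69 ± 0.33 TPM in wildtype cells and 0.749 ± 0.161 TPM in KO cells (-1.70, limma adjusted p = 6.3e-06), and Cemip2 at 17.9 ± 0.058 and 18.0 ± 3.45 TPM (adjusted p = 0.96). Hyal4, Hyal5, Hyal6 and Spam1 were at 0.136 TPM or less in every library.

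Of 4 other receptors tested, 4 were higher and 0 lower in labelled KO in EBSS, beside 71.9% of all genes higher. Layn, the membrane lectin layilin, was higher by 3.72 (limma adjusted p = 7.8e-09), Tlr2 by 1.24, Hmmr, a hyaluronan-binding protein of the mitotic spindle, by 1.06 and Tlr4 by 0.66. Relative to the median gene Hmmr was at 0.15 and Tlr4 at -0.25, so the direction for Tlr4 depends on the scale. In full medium 0 rose and 2 fell in KO. Layn averaged 75.7 ± 0.55 TPM in wildtype cells and 13.3 ± 1.51 TPM in KO cells (-2.43, adjusted p = 2.7e-07), and Hmmr was at 38.1 ± 0.546 and 36.3 ± 5.42 TPM (adjusted p = 0.67). Unlike Has2 and Cd44, Layn was as high in replicate 1 of labelled KO, EBSS, at 75.8 TPM, as in replicates 2 and 3, at 77.2 and 74.9 TPM. Lyve1, the lymphatic receptor, was at 0.109 TPM or less throughout.

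Of 7 tested genes listed for binding or crosslinking hyaluronan, 7 were higher in labelled KO in EBSS, beside 71.9% of all genes, and 0 rose and 5 fell in KO in full medium (71.4% lower, beside 35.8%). These counts include Habp4, hyaluronan-binding protein 4, named after its values were seen, whose place in the matrix is not shown here. It was higher by 1.51 in EBSS and was at 0.43 in full medium, where it did not pass (limma adjusted p = 0.11). Ptx3, a pentraxin of the hyaluronan-rich matrix, was higher in EBSS by 4.72 (limma adjusted p = 2.7e-09), the proteoglycan versican, Vcan, by 3.13, Tnfaip6, which transfers heavy chains onto hyaluronan, by 2.87, and Itih2, one such heavy chain, by 2.09. In full medium Ptx3 fell from 269 ± 5.75 to 38.5 ± 3.56 TPM in KO, and Vcan from 37.4 ± 0.805 to 6.53 ± 1.32 TPM (-2.78 and -2.37, adjusted p = 1.6e-07 and 3.5e-07).

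Of 8 CD44 partners, 7 were higher and 1 lower in labelled KO in EBSS, beside 71.9% and 8.58% of all genes, and 2 rose and 6 fell in KO in full medium, beside 20.1% and 35.8%. Spp1, the ligand osteopontin, was higher in EBSS by 3.60 (limma adjusted p = 1.1e-07), the sheddase Adam10 by 2.72, and Rdx and Msn, which link CD44 to actin, by 2.10 and 1.88. The exception in EBSS was Ezr, ezrin, of the same family as Rdx and Msn and named after its values were seen. It was lower in labelled KO in EBSS (-1.20, adjusted p = 6.4e-05) and rose by 0.70 in KO in full medium (adjusted p = 0.0052), where Rdx was at -0.88 and Msn at -0.73. Ezr averaged 51.6 ± 2.46 TPM in wildtype cells and 84.7 ± 5.4 TPM in KO cells in full medium, and Msn at 969 ± 3.86 and 586 ± 64.7 TPM. The other partner that rose in KO in full medium was Nf2, by 0.48 (adjusted p = 0.0055), also named after its values were seen. In EBSS Nf2 was higher in labelled KO by 1.21 (adjusted p = 3.2e-06).

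**Figure D4:**
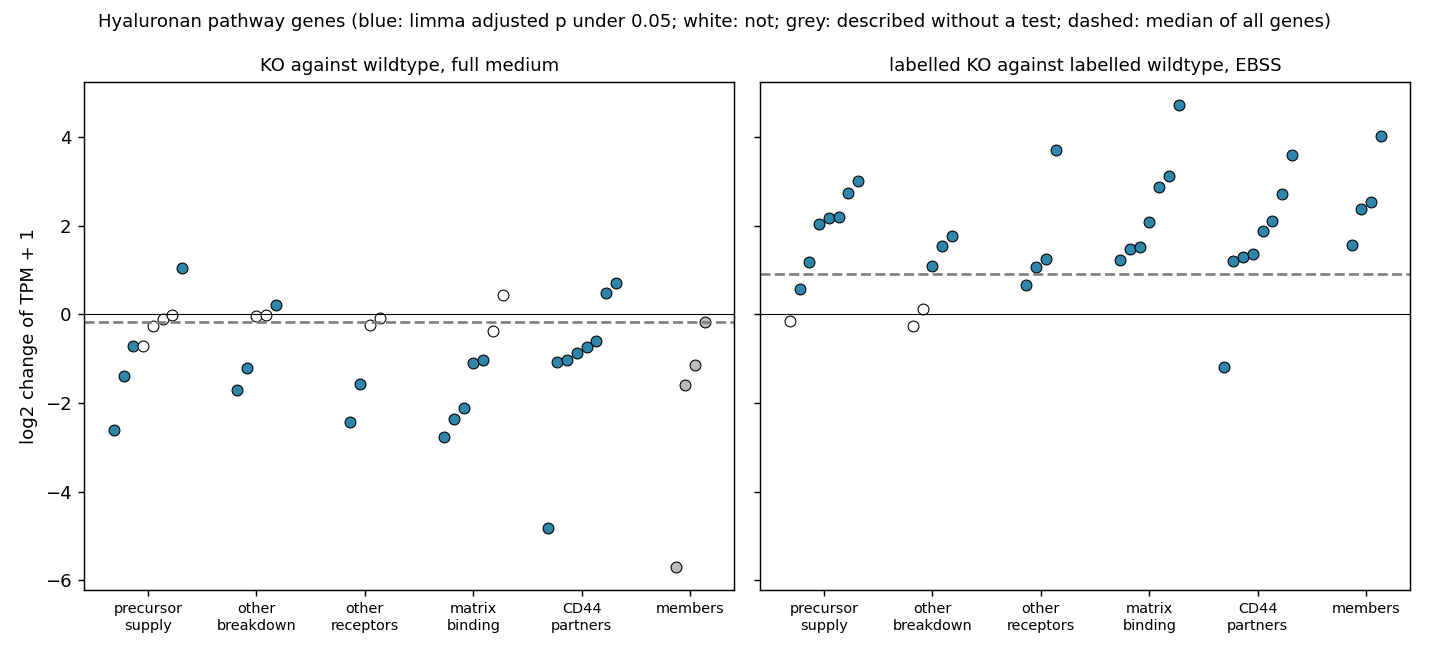
Change on the log2(TPM + 1) scale of the tested pathway genes by functional list, with the members in the last column, for KO against wildtype in full medium (left) and labelled KO against labelled wildtype in EBSS (right). Blue points passed the limma test, white ones did not, grey ones are described without a test, and the dashed line is the median of all tested genes (-0.17 and 0.91); Ezr is the blue point under 0 on the right.

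Across the 12 libraries the genes closest to Has2 by Pearson's r of log2(TPM + 1), out of 10336 compared, were Gjb2 (0.993), Lif (0.992), Pcdh7 (0.992), Npas4 (0.99) and Ereg (0.99). Those closest to Cd44 were Arl4c (0.997), Chst11 (0.997), Vcl (0.997), Lox (0.996) and Mmp10 (0.996). The 12 points fall into 4 groups. All 10 were lower in replicate 1 of labelled KO, EBSS than in its other 2 libraries: Gjb2, a connexin, was at 4.03 TPM against 49.7 and 44.6 TPM, and Lox, a lysyl oxidase, at 197 against 525 and 541 TPM. They were picked by r over these same libraries, in which Has2 and Cd44 were lower in that replicate. The shared drop thus follows from the choice and is no separate result. Among the members, r was 0.893 between Has2 and Cd44, 0.959 between Hyal2 and Cd44, 0.877 between Hyal1 and Hyal2 and 0.558 between Has2 and Hyal1.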

How the data were processed

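RNA of 12 mouse embryonic fibroblast libraries was measured by poly(A) sequencing. The authors deposited TPM per gene symbol in one table, and the submitters' processing notes name Salmon and mm10; for the Salmon version, the annotation and the treatment of strand, nothing is given in the sources used here. TPM keeps no depth, so no count model or counting interval was used. Columns summed to 92.3% to 99.4% of the nominal TPM total. Genes at 1 TPM or more in at least 3 libraries (12653 of 25117) were tested on log2(TPM + 1) with limma 3.58.1 in R 4.3.3: one mean per group over all 12 libraries, moderated variances with a trend, two-sided, Benjamini-Hochberg adjustment over all tested genes, threshold 0.05. The procedure was tested on simulated data. Groups came from sample titles. Members and lists were chosen with earlier results of these data known. Named were all members, Rbbp5, Has2os, up to 4 genes per list with the largest change among those called in EBSS, and the 5 genes closest to Has2 and to Cd44 in groups reaching 5 TPM, leaving out predicted genes. Coordinates are from GENCODE vM21 (GRCm38, the assembly of mm10), which may differ from the annotation behind the table. Alternatives were pseudocount 0.1, no filter, a mean of 5 TPM, median-of-ratios and quantile scaling, fits on single comparisons, a replicate block and leaving out each library. Leaving out both libraries that stood apart was added after seeing the data. Figures used matplotlib 3.10.9.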

Additional observations from a re-analysis of the deposited data

Results flagged for a closer look

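The difference between genotypes itself differed between media in the 3 members other than Has2 that were tested. From full medium to EBSS, labelled KO minus labelled wildtype went from -1.14 to 2.53 for Hyal2, a shift of 3.67 (limma interaction, adjusted p = 1.4e-06), from -0.16 to 1.57 for Hyal1, a shift of 1.74 (adjusted p = 1.1e-05), and from -1.59 to 2.39 for Cd44, a shift of 3.98 (adjusted p = 1.6e-06). Beside these, 64.2% of all genes had a higher and 12.5% a lower value, with a median of 1.06. Each shift contains the full medium difference between genotypes, in which members are described without a test. The p-values of the shifts are therefore not free of the choice of genes and are no separate support. For Hyal1 this call was lost with quantile normalization, at 0.28 (adjusted p = 0.33). For Has2 the values went from -5.69 to 4.02, a shift of 9.71 that was not tested: every KO library was below every wildtype library in full medium, and every library labelled KO was above every library labelled wildtype in EBSS. The Rbbp5 levels in EBSS did not follow the genotype labels, and whether labels were exchanged was not tested. With exchanged EBSS labels the EBSS difference would turn its sign, and the shift would then be below 0 for Hyal2, Hyal1 and Cd44.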

How the results depend on the processing

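Tested members called numbered 4 in EBSS, 3 for EBSS against full medium in labelled wildtype, 2 in labelled KO and 3 for the interaction. These counts stayed within 1.5 times under the alternatives, except with no filter, where Has1 and Has3 entered the test and the last 3 counts were 5, 4 and 5. Of 97 values of tested members under alternatives other than leaving out a library, 95 kept direction and call. The exceptions were Hyal1 with quantile normalization: -0.25 for EBSS against full medium in labelled KO, called in neither, and 0.28 for the interaction, no longer called; the cause was not tested. All 156 values of tested members with 1 library left out kept direction and call. Among values given without a test, 1 changed sign, Hyal1 in full medium, at 0.29 with quantile normalization. With the replicate number as a block the EBSS count was 4 and the Has2 change 4.02 (adjusted p = 0.00035), and no call of a tested member changed. Same-numbered libraries did not deviate together (correlations of -0.0728 to 0.0793), so no pairing by number was seen. With 3 libraries a group this cannot exclude a shared culture or batch. Read depth is unknown and limits values under about 1 TPM.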
